A study of Oryza sativa with 12 samples.

Results

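The transcripts described here are those of the rice protein disulfide isomerases, the genes whose symbol or synonym in the gene annotation of the array is PDIL followed by numbers, with or without the prefix Os. The rule found 12 genes. Of these 11 had a probe set on the Affymetrix Rice Genome Array, against 17905 genes with a probe set in all, and 9 lay above a log2 signal of 4 in at least 3 arrays, the limit of the filter on low signals. The rule itself uses names and not measured differences. Embryonic axes of Oryza sativa seed, cultivar nipponbare, were measured on 12 arrays in 4 groups of 3 replicates. All seeds shared 3 days at 85% relative humidity and 25 °C before storage and 3 days at 32% relative humidity and 25 °C after it. In between they were held at 85% relative humidity and either 25 °C, the control, or 40 °C, for 14 days by the protocol labels or 15 days by the description. Each temperature was split by the array titles into a group with the suffix 0H (written with the letter O at 25 °C) and a group with the suffix 4H, and the labels do not say what the suffixes stand for. The labels also mention storage at 45 °C, which is not analysed here.

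Protein disulfide isomerases are enzymes of the endoplasmic reticulum (ER) that make, break and rearrange the disulfide bonds of proteins entering the secretory pathway. They carry domains of the thioredoxin fold, whose paired cysteines are reoxidised by other enzymes of the ER. In the developing rice seed they act on storage proteins, and in other cells they belong to the set of ER folding helpers that the unfolded protein response controls. OsPDIL1-1 is the gene mutated in rice esp2 plants, in which glutelin precursors accumulate, and OsPDIL2-3 has been tied to prolamin protein bodies of the endosperm. OsPDIL5-1 is known from barley, where its counterpart is a host factor of bymoviruses. OsPDIL5-4 belongs to a branch with similarity to the yeast Erv41 and Erv46 proteins of early secretory vesicles.

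The annotation mixes 2 naming schemes, so that OsPDIL2-1 is a name of both LOC4337858 and LOC4327971, and OsPDIL5-1 a name of both LOC4332486 and LOC4347226. Here OsPDIL2-1 stands for LOC4337858 (also OsPDIL4-1), OsPDIL1-4 for LOC4327971, OsPDIL5-1 for LOC4332486 (also OsPDIL6-1) and OsPDIL2-3 for LOC4347226. The other genes are OsPDIL1-1 (LOC4350002), OsPDIL1-5 (LOC4340223, also OsPDIL3-1), OsPDIL2-2 (LOC4326806, also OsPDIL4-2), OsPDIL5-2 (LOC4335881, also OsPDIL7-1) and OsPDIL5-4 (LOC4343420, also OsPDIL8-1). OsPDIL1-2 (LOC4335906) and OsPDIL1-3 (LOC4329652) were on the array but below the filter, and for OsPDIL5-3 (LOC4329624) the annotation used here lists no probe set. The lowest value of any of the 9 kept genes was 5.32 (OsPDIL1-5), and the highest of the excluded genes was 2.79 (OsPDIL1-3). OsPDIL2-3 was read by a probe set marked _x_at and OsPDIL2-1 by one marked _s_at, which by the manufacturer's naming can match related transcripts. Levels are given in log2 units, where a difference of 1 is a 2-fold change, and are compared between groups for a gene, not between genes.

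Some measures of the arrays moved with the groups. The 3′ minus 5′ log2 signal of the Gapdh control probe sets, which rises when RNA or its copy is shortened, was 2.06 to 2.40 at 25 °C and 3.40 to 3.98 at 40 °C in the 0H groups, and 2.26 to 2.44 and 2.56 to 2.95 in the 4H groups. That of the Actin control probe sets was 2.37 to 2.50 at 25 °C and 3.20 to 3.48 at 40 °C in the 0H groups. In the 4H groups the Actin ranges overlapped, at 2.82 to 3.14 and 2.85 to 3.12. Replicates 1 and 2 of the 40 °C 0H group had poly-A spike-in signals of 8.82 and 8.85 against 4.83 in replicate 3. The 25 °C 0H group had 3.52 to 4.98. In the 4H groups these signals did not overlap, at 2.50 to 3.87 at 25 °C and 4.20 to 6.18 at 40 °C. The share of probe sets above log2 4 also separated the 4H groups, at 27.1% to 27.7% and 26.3% to 26.5%. The tissue label reads seed and the protocol names the embryonic axis. Of 3 embryo markers 2 had a probe set, the late embryogenesis gene Emp1, at group means of 12.2 to 12.5, and the regulator OsVP1, at 7.82 to 9.89. All 3 starch synthesis markers of the endosperm were measured, with a summed log2 signal of 17.1 to 18.2 at 25 °C and 21.2 to 21.7 at 40 °C in the 0H groups and of 14.7 to 16.6 and 17.3 to 17.5 in the 4H groups. Of these markers SSII-3 had a group mean above log2 4 in the 40 °C 0H group alone, and GBSS1 and SBE lay above it in all 4 groups. The storage protein genes described below were also listed as endosperm markers. The mean of their summed signal was 62.0 at 25 °C and 67.0 at 40 °C at 0H. At 4H it was 64.4 and 58.1, so lower at 40 °C, where the mean sum of the starch synthesis markers was higher (15.6 and 17.4). For the aleurone 6 of 7 markers had a probe set, with sums of 30.1 to 31.6 and 33.3 to 34.3 at 0H and of 31.8 to 35.1 and 31.2 to 32.3 at 4H. These sums add markers that moved in opposite directions. From 0H to 4H at 25 °C the mean of AMY1.1 rose from 4.08 to 9.91 and that of AMY1.2 fell from 5.45 to 1.98. At 4H OsGAMyb was higher at 40 °C than at 25 °C (8.11 and 7.13), and AMY1.4 was lower (6.50 and 7.77). The part of these measures in the PDIL results was not tested, and in bulk tissue fewer cells of a type and less RNA per cell cannot be told apart.

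**Figure D1:**
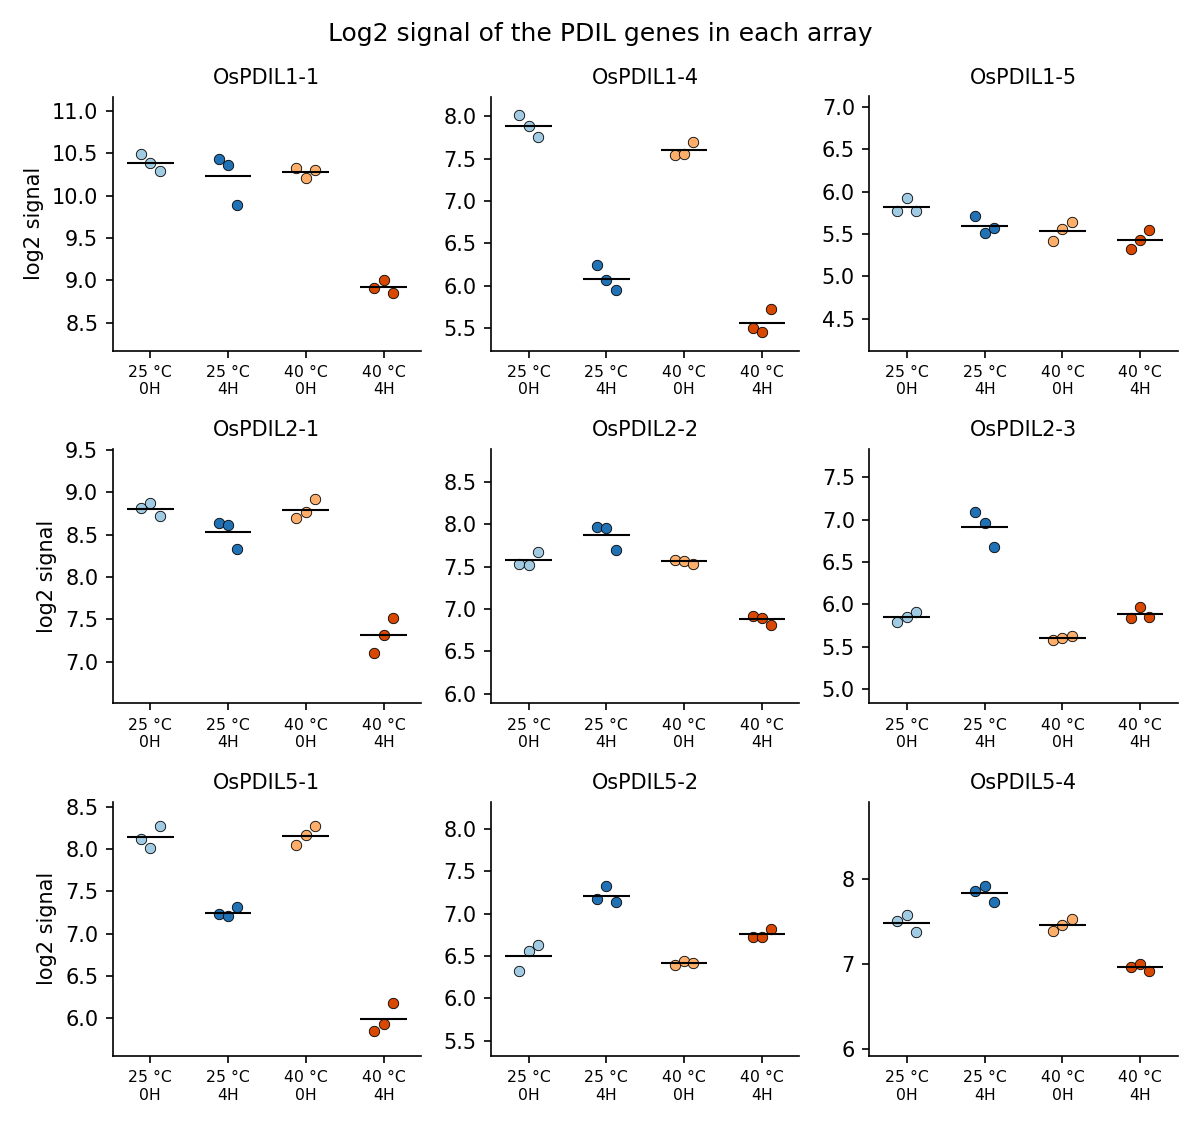
Each panel plots the log2 signal (vertical axis, with a span of 3 log2 units in each panel) of 1 PDIL gene in the 12 arrays, grouped on the horizontal axis by storage temperature and suffix. Points are arrays and bars are group means (n = 3). The 40 °C 4H arrays lie below all 25 °C 4H arrays in every panel except that of OsPDIL1-5.

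In the 0H axes no PDIL transcript was called different between storage at 40 °C and at 25 °C. By limma with Benjamini-Hochberg adjustment over all probe sets 0 of the 9 genes passed the test in either direction, where 17.7% of the 17650 probe sets tested did (5.99% higher, 11.7% lower). At an unadjusted p under 0.05, 3 of the 9 genes (OsPDIL1-4, OsPDIL1-5 and OsPDIL2-3) lay lower at 40 °C and 0 higher. Replicate 1 of the 40 °C group was the lowest of its group for 7 of the 9 genes, where it was the lowest for 30.7% of all probe sets tested. The log2 differences, 40 °C minus 25 °C, ran from −0.29 to 0.02 with a median of −0.09, against a median of −0.01 over all probe sets tested. Of 11510 genes with 1 probe set each, 626 were called higher and 867 lower at 40 °C.

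OsPDIL1-1, the glutelin-folding isomerase, read 10.49, 10.38 and 10.29 in replicates 1 to 3 at 25 °C and 10.32, 10.21 and 10.30 at 40 °C. The groups overlapped, and the difference of −0.11 had a 95% confidence interval of −0.35 to 0.13. OsPDIL2-1 differed by −0.01 (interval −0.24 to 0.22), OsPDIL2-2 by −0.01 (−0.19 to 0.16), OsPDIL5-1 by 0.02 (−0.19 to 0.23), OsPDIL5-2 by −0.09 (−0.28 to 0.10) and OsPDIL5-4 by −0.03 (−0.19 to 0.14). A second probe set of OsPDIL2-1 differed by −0.20 (interval −0.39 to −0.01), with overlapping groups. By limma its unadjusted p was 0.0368 and its adjusted p 0.128, so it was not called. For 3 genes all 40 °C arrays lay below all 25 °C arrays without passing the adjusted test, in a comparison where 37.1% of all probe sets had groups that did not overlap. OsPDIL1-4 read 8.02, 7.88 and 7.76 at 25 °C and 7.55, 7.55 and 7.70 at 40 °C, a difference of −0.29 (interval −0.51 to −0.06, adjusted p = 0.0749 by limma). It passed the test without replicate 3 of the 25 °C 0H group (−0.35, adjusted p = 0.0454) or replicate 3 of the 25 °C 4H group (adjusted p = 0.0497), in a range of 0.0120 to 0.571 over all alternatives. OsPDIL1-5 differed by −0.29 (−0.51 to −0.06, adjusted p = 0.0788) and OsPDIL2-3 by −0.25 (−0.48 to −0.03, adjusted p = 0.116). With array weights these 3 genes were called lower, and in a fit of only the 2 groups compared OsPDIL1-4 was (adjusted p = 0.0368). Over the alternatives the adjusted p ran from 0.0102 to 0.571 for OsPDIL1-5 and from 0.0292 to 0.492 for OsPDIL2-3.

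In the 4H axes 8 of the 9 genes fell at 40 °C relative to 25 °C by limma, 0 rose (0 also at an unadjusted p under 0.05), and OsPDIL1-5 did not pass the test. In the same comparison 74.0% of the probe sets tested changed, 43.5% lower and 30.5% higher at 40 °C. The median log2 change of the 9 genes was −0.99, beside −0.16 over all probe sets tested and −0.24 over 11510 genes with 1 probe set each. Of those 11510 genes 5565 were called lower and 3289 higher at 40 °C. The changes of the 9 genes ran from −1.31 to −0.17. All 25 °C arrays lay above all 40 °C arrays for the 8 genes that fell, where 76.3% of the probe sets had groups that did not overlap.

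OsPDIL1-1 read 10.43, 10.37 and 9.89 in the 25 °C 4H arrays and 8.90, 9.00 and 8.85 in the 40 °C 4H arrays. Replicate 3 at 25 °C was the low array of its group and still lay above every 40 °C array. Group means were 10.2 ± 0.30 at 25 °C and 8.92 ± 0.07 at 40 °C (SD, n = 3). The transcript was thus 2.48-fold lower at 40 °C, with a log2 change of −1.31 (SE 0.11, adjusted p = 1.09e-07). OsPDIL1-4, another gene with the class name PDIL1, read 6.24, 6.06 and 5.95 at 25 °C and 5.50, 5.45 and 5.73 at 40 °C. It changed by −0.53 (SE 0.11, adjusted p = 0.000400), with no overlap between the groups. OsPDIL1-5 read 5.72, 5.51 and 5.57 at 25 °C and 5.32, 5.43 and 5.55 at 40 °C. These groups overlapped, and the difference of −0.17 (interval −0.39 to 0.06) had an adjusted p of 0.172.

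Among the genes named PDIL2, OsPDIL2-1 read 8.64, 8.61 and 8.33 at 25 °C and 7.11, 7.32 and 7.52 at 40 °C, and was 2.33-fold lower (change −1.22, SE 0.11, adjusted p = 1.46e-07). The second probe set of that gene gave a change of −1.23 (SE 0.09, adjusted p = 1.82e-08), from 7.68, 7.65 and 7.51 to 6.24, 6.45 and 6.45. Both probe sets thus had every 40 °C array below every 25 °C array. OsPDIL2-2 read 7.96, 7.96 and 7.70 at 25 °C and 6.92, 6.90 and 6.82 at 40 °C, a change of −0.99 (SE 0.08, adjusted p = 7.92e-08). OsPDIL2-3 read 7.09, 6.96 and 6.67 at 25 °C and 5.84, 5.97 and 5.85 at 40 °C, a change of −1.02 (SE 0.11, adjusted p = 6.75e-07). In each of these genes replicate 3 was the lowest 25 °C array.

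Among the genes named PDIL5, OsPDIL5-1 read 7.23, 7.20 and 7.31 at 25 °C and 5.85, 5.93 and 6.18 at 40 °C. Group means were 7.25 ± 0.06 and 5.99 ± 0.17 (SD, n = 3). The transcript was 2.40-fold lower at 40 °C (change −1.26, SE 0.10, adjusted p = 4.65e-08). OsPDIL5-4 read 7.86, 7.92 and 7.73 at 25 °C and 6.97, 7.00 and 6.92 at 40 °C, a change of −0.88 (SE 0.08, adjusted p = 1.70e-07). The values within each group of this gene lay within narrow ranges, with SDs of 0.10 and 0.04. OsPDIL5-2 read 7.18, 7.32 and 7.14 at 25 °C and 6.72, 6.73 and 6.82 at 40 °C, a change of −0.46 (SE 0.09, adjusted p = 0.000360). Of the 8 falls this was the smallest, next to that of OsPDIL1-4.

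Replicate 3 of the 25 °C 4H group was the lowest array of its group for 7 of the 9 genes, where it was the lowest for 39.2% of all probe sets tested. Without it 8 genes were again lower at 40 °C, and leaving out any other array also gave 8. The change of OsPDIL1-1 lay between −1.48 and −1.21 over all alternatives, that of OsPDIL5-1 between −1.36 and −1.17, and that of OsPDIL5-4 between −0.93 and −0.78.

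**Figure D2:**
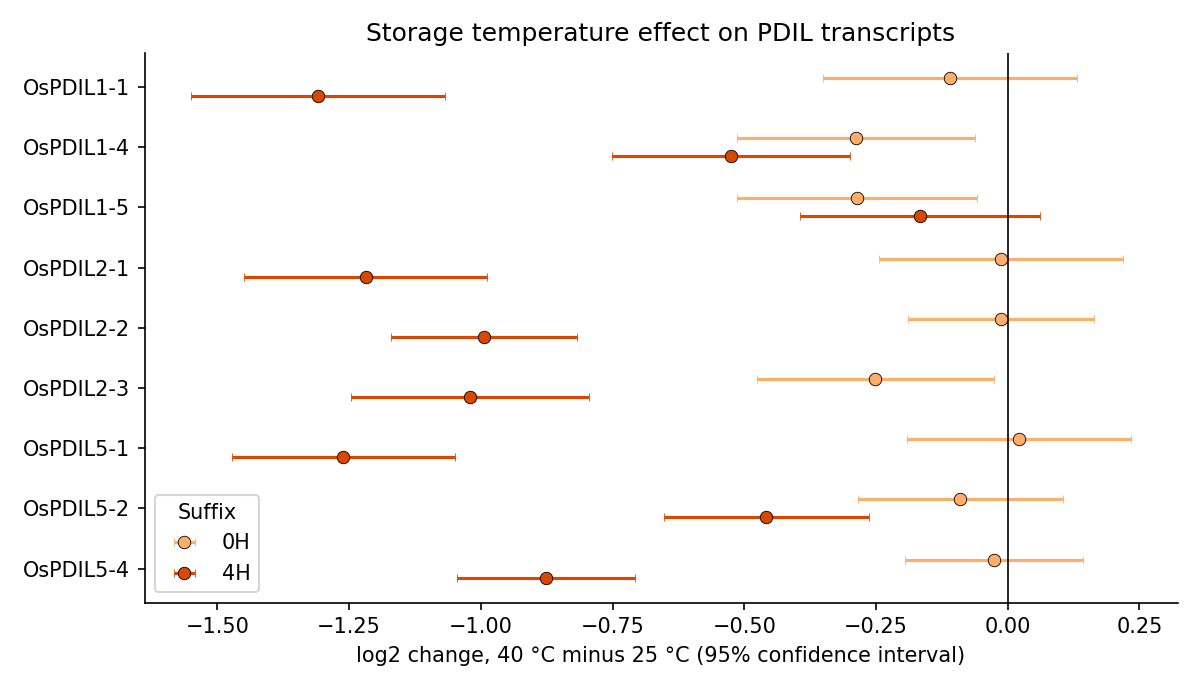
The horizontal axis gives the log2 change at 40 °C relative to 25 °C with its 95% confidence interval for each of the 9 PDIL genes, in the 0H arrays (light) and the 4H arrays (dark), from 3 arrays a group. At 0H the changes lie between −0.29 and 0.02, and at 4H 8 of 9 intervals lie wholly below 0.

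The temperature effect differed between the suffix groups for 7 of the 9 genes, each with a more negative effect at 4H than at 0H by the interaction term, where 65.0% of the probe sets tested had a called interaction, 36.9% negative and 28.1% positive. In 0 of the 9 genes was it called positive, also at an unadjusted p under 0.05. The difference of the effects was −1.28 for OsPDIL5-1 (SE 0.14, adjusted p = 2.96e-06), −1.21 for OsPDIL2-1, −1.20 for OsPDIL1-1, −0.98 for OsPDIL2-2, −0.85 for OsPDIL5-4 and −0.77 for OsPDIL2-3. For OsPDIL5-2 it was −0.37 (SE 0.13, adjusted p = 0.0210). That call ended with no filter (adjusted p = 0.0808), with median centring (−0.32, adjusted p = 0.0569), without replicate 1 of the 25 °C 0H group (−0.28, adjusted p = 0.0555), without replicate 2 of the 25 °C 4H group (−0.31, adjusted p = 0.0596) and without replicates 1 and 2 of the 40 °C 0H group together (−0.37, adjusted p = 0.0896), and over all alternatives its adjusted p ran from 0.00390 to 0.0896. OsPDIL1-4 and OsPDIL1-5 had no called interaction, at −0.24 (interval −0.56 to 0.08) and 0.12 (−0.20 to 0.44). The median over the 9 genes was −0.85, beside −0.12 over all probe sets tested and −0.25 over 11510 genes with 1 probe set each. Of those 11510 genes 4935 had a called negative interaction and 2877 a called positive one.

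Within the axes stored at 25 °C the 4H group was compared with the 0H group to describe the change between the suffixes without the high temperature. Of the 9 genes 4 rose, 3 fell and 2 did not pass the test, where 81.9% of the probe sets tested changed, 39.9% higher and 42.0% lower. OsPDIL2-3 had the largest rise, 2.08-fold, from 5.80, 5.85 and 5.91 at 0H to the 4H values given above (change 1.05, SE 0.11, adjusted p = 2.55e-07). OsPDIL5-2 rose by 0.71 (SE 0.09, adjusted p = 3.96e-06) from 6.33, 6.56 and 6.63. All 4H arrays of both genes lay above all 0H arrays, in a comparison where the groups of 81.9% of the probe sets did not overlap. OsPDIL5-4 rose by 0.35 (SE 0.08, adjusted p = 0.000828) from 7.51, 7.57 and 7.38, and OsPDIL2-2 by 0.30 (SE 0.08, adjusted p = 0.00389) from 7.54, 7.52 and 7.67.

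Of the 3 falls at 25 °C that of OsPDIL1-4 was the largest, with group means of 7.89 ± 0.13 at 0H and 6.08 ± 0.15 at 4H (SD, n = 3). It fell 3.49-fold (change −1.80, SE 0.11, adjusted p = 6.87e-10). OsPDIL5-1 fell by 0.89 (change −0.89, SE 0.10, adjusted p = 8.69e-07) from 8.12, 8.02 and 8.27. Both genes had all 4H arrays below all 0H arrays. OsPDIL2-1 changed by −0.27 (SE 0.11, adjusted p = 0.0289) from 8.82, 8.88 and 8.72. Its call ended with no variance trend (adjusted p = 0.0521), without replicate 1 or 2 of the 25 °C 0H group (−0.27 and −0.24, adjusted p = 0.0614 and 0.0921) and without replicate 3 of the 25 °C 4H group (−0.18, adjusted p = 0.129), in a range of 0.00413 to 0.129 over all alternatives. OsPDIL1-1 differed by −0.16 (interval −0.40 to 0.08, adjusted p = 0.204), and OsPDIL1-5 by −0.22 (interval −0.45 to 0.00, adjusted p = 0.0649) from 5.78, 5.92 and 5.77. OsPDIL1-5 passed the test without replicate 1 of the 25 °C 4H group (−0.28, adjusted p = 0.0414), in a range of 0.00783 to 0.201.

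Centring every array on the median of the probe sets tested moved the median of this comparison over all probe sets from −0.04 to −0.14. With that shift the difference of OsPDIL1-1 was −0.26 and that of OsPDIL1-5 −0.33, both called lower (adjusted p = 0.0373 and 0.0121), and the rise of OsPDIL2-2 was 0.20 and not called (adjusted p = 0.0517). Over the alternatives the adjusted p ran from 0.0373 to 0.885 for OsPDIL1-1 and from 3.05e-05 to 0.0517 for OsPDIL2-2.

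In the axes stored at 40 °C the same comparison of 4H with 0H had 6 genes that fell, 2 that rose and 1 that did not pass the test, where 87.2% of the probe sets tested changed, 46.3% lower and 41.0% higher. OsPDIL5-1 fell 4.50-fold, from 8.04, 8.16 and 8.27 at 0H (change −2.17, SE 0.10, adjusted p = 2.38e-11). OsPDIL1-4 fell 4.12-fold (change −2.04, SE 0.11, adjusted p = 9.33e-11), and the change at 25 °C had been nearly as large. OsPDIL2-1 fell 2.79-fold from 8.69, 8.76 and 8.92 (change −1.48, SE 0.11, adjusted p = 4.57e-09), and OsPDIL1-1 fell 2.56-fold (change −1.36, SE 0.11, adjusted p = 2.03e-08). All 40 °C 4H arrays of these 4 genes lay below all 40 °C 0H arrays, as the groups of 89.4% of all probe sets did not overlap.

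OsPDIL2-2 fell by 0.68 (change −0.68, SE 0.08, adjusted p = 1.56e-06) from 7.58, 7.57 and 7.54, and OsPDIL5-4 by 0.50 (change −0.50, SE 0.08, adjusted p = 2.60e-05) from 7.39, 7.46 and 7.54. These 2 genes had risen from 0H to 4H at 25 °C, so their changes between the suffixes ran in opposite directions at the 2 temperatures. OsPDIL5-2 rose by 0.34 (SE 0.09, adjusted p = 0.00280) from 6.40, 6.44 and 6.42. OsPDIL2-3 rose by 0.28 (SE 0.11, adjusted p = 0.0202) from 5.58, 5.60 and 5.63. The call of OsPDIL2-3 ended with no filter (adjusted p = 0.0593), with quantile normalization (0.23, adjusted p = 0.0666) and with median centring (0.23, adjusted p = 0.0561). It also ended without replicate 2 of the 40 °C 4H group (0.24, adjusted p = 0.0722), without replicate 1 of the 40 °C 0H group (0.27, adjusted p = 0.0530) and without replicates 1 and 2 of that group together (0.26, adjusted p = 0.161), in a range of 0.00337 to 0.161 over all alternatives. OsPDIL1-5 differed by −0.10 (interval −0.33 to 0.12) from 5.41, 5.56 and 5.64. The 4H and 0H comparisons use the same arrays as the temperature comparisons, so the 4 sets of changes are not independent of each other.

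**Figure D3:**
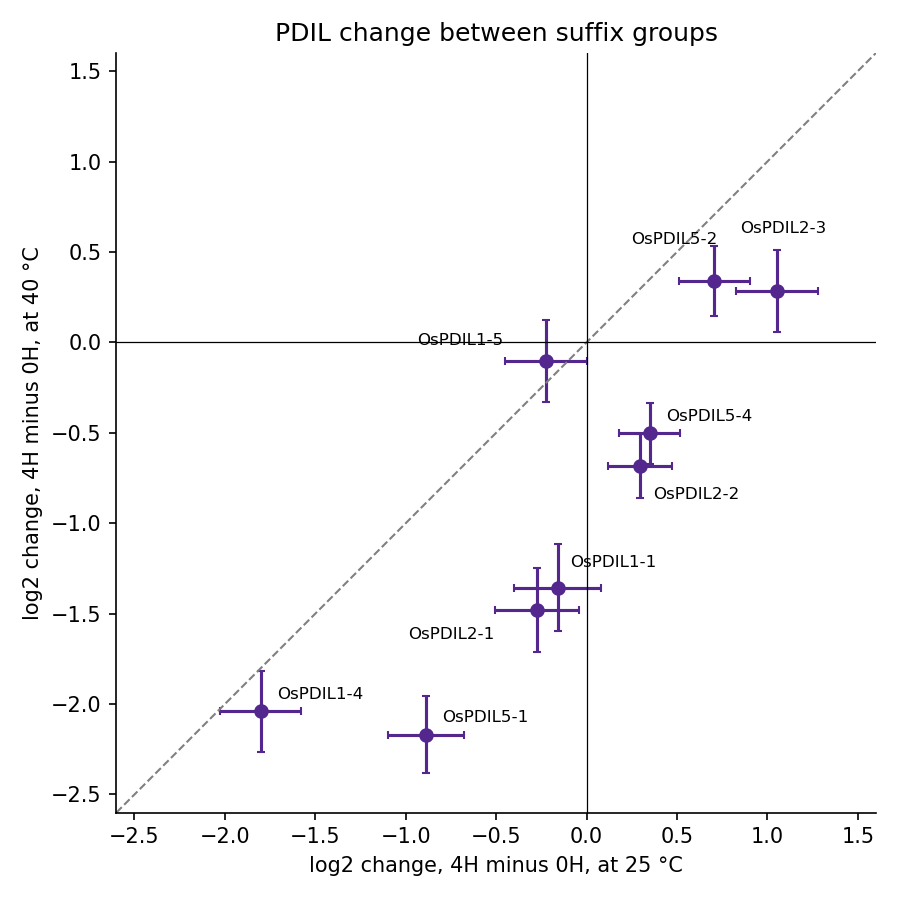
Each point is 1 PDIL gene, with the log2 change from 0H to 4H at 25 °C on the horizontal axis and at 40 °C on the vertical axis, and bars are 95% confidence intervals (3 arrays a group). The dashed line marks equal change. OsPDIL1-5 lies just above the line and 8 genes below it, OsPDIL1-4 the nearest of them.

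The order of the 4 groups thus differed among the genes. OsPDIL1-1 and OsPDIL2-1 had neighbouring means in both 0H groups and the 25 °C 4H group (10.4, 10.3 and 10.2 for OsPDIL1-1, and 8.81, 8.79 and 8.53 for OsPDIL2-1) and lower ones in the 40 °C 4H group, at 8.92 and 7.31. OsPDIL2-2 and OsPDIL5-4 were highest in the 25 °C 4H group and lowest in the 40 °C 4H group. OsPDIL2-3 and OsPDIL5-2 were highest in the 25 °C 4H group, and their 40 °C 4H means of 5.89 and 6.76 stood beside 0H means of 5.60 to 5.85 and of 6.42 to 6.51. For OsPDIL2-3 the 40 °C 4H mean and the 25 °C 0H mean, 5.89 and 5.85, are neighbours whose arrays overlapped. OsPDIL5-1 stepped down from the 0H groups (8.14 and 8.16) to 25 °C 4H and again to 40 °C 4H. OsPDIL1-4 was high in both 0H groups and low in both 4H groups.

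The likeness of these patterns was measured as the root mean square difference between the 4 group means of 2 genes, each centred on its own mean. The closest pairs among the 9 genes were OsPDIL2-2 with OsPDIL5-4, at 0.07 log2 units, and OsPDIL1-1 with OsPDIL2-1, at 0.08. The least alike were OsPDIL1-4 and OsPDIL2-3, at 1.31. Among 1689 other named genes that passed the filter, the nearest to OsPDIL1-1 were SPL15 (0.03), OsSTLP5 (0.07) and CDC2-1 (0.07). OsPDIL2-1 had ATCase (0.05), OsSTLP5 (0.05) and the ribosomal protein gene RPS4 (0.07) as nearest genes. The nearest to OsPDIL5-2 was OsbZIP39 (0.03), which encodes a transcription factor anchored in the ER membrane, followed by AGPR (0.04) and RTUB-2 (0.05). OsPDIL5-4 had OsYAB5 (0.04), OST3 (0.05) and Rictpi2 (0.05), OsPDIL5-1 had HMG3 (0.05), the aquaporin gene OsTIP2;2 (0.05) and LKHA4 (0.06), and OsPDIL2-2 had calmodulin (0.06), NTRB (0.07) and eIF3k (0.07). OsPDIL1-4 was nearest to E37 (0.07), CYP701A19 (0.08) and ACC2 (0.08), OsPDIL1-5 to PLD1 (0.04), BBD2 (0.05) and NDKR (0.06), and OsPDIL2-3 to AD709, GLN1-1 and cope1 (0.07 each). These measures rest on 4 group means from 12 arrays and are given as descriptions.

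Other genes of protein folding and quality control in the ER moved in both directions. Of 19 listed genes 14 had a probe set and 13 passed the filter, OsBiP4 lying below it. In the 4H comparison of 40 °C with 25 °C 4 of the 13 rose and 6 fell, where 30.5% of the probe sets tested rose and 43.5% fell. The median change of the list was −0.15, beside −0.16 over all probe sets tested. The 3 largest changes were rises of genes of the unfolded protein response. OsIRE1, the ER membrane kinase and ribonuclease that senses unfolded proteins, rose from 7.19 ± 0.04 to 8.43 ± 0.07 (SD, n = 3), a change of 1.24 (SE 0.11, adjusted p = 1.06e-07). OsbZIP50, the transcription factor whose messenger RNA OsIRE1 splices, rose from 8.75 ± 0.23 to 10.3 ± 0.01 (change 1.58, SE 0.10), and OsbZIP60 from 7.55 ± 0.24 to 9.20 ± 0.15 (change 1.65, SE 0.10). These 3 genes were those of the lowest p of the list in this comparison. The 6 ER genes that fell moved in the same direction as 8 of the 9 PDIL genes.

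OsbZIP39, another membrane-anchored factor, fell by 0.49 (change −0.49, SE 0.08). Among the chaperones, the calreticulin gene CRO1 fell by 0.88 (change −0.88, SE 0.08) and the DnaJ-type co-chaperone OsERdj7 by 1.12 (change −1.12, SE 0.10). The co-chaperone OsERdj3A went the other way and rose by 0.75 (SE 0.12, adjusted p = 5.88e-05 by limma). OsERdj3B changed by −0.31 (SE 0.12, adjusted p = 0.0263), a call that ended under several alternatives. OsERdj2 differed by 0.19 (adjusted p = 0.135) and was called higher with median centring (0.29, adjusted p = 0.0234). BIP1, the main Hsp70 chaperone of the ER, read 10.2 ± 0.41 at 25 °C and 9.82 ± 0.02 at 40 °C (change −0.36, SE 0.14, adjusted p = 0.0295), a call that ended without replicate 1 or 2 of the 25 °C group (−0.24 and −0.25) or any one of the 40 °C replicates, in a range of 9.16e-07 to 0.149 over all alternatives. From 0H to 4H BIP1 rose at both temperatures, by 2.16 (SE 0.14) at 25 °C and by 1.73 (SE 0.14) at 40 °C. OsbZIP50 rose by 2.37 and 3.49 and OsIRE1 by 0.72 and 2.15 in the same comparisons, and OsbZIP60 changed by −0.26 and 1.43. Of the 13 ER genes 9 rose and 3 fell at 25 °C, where 39.9% of the probe sets tested rose and 42.0% fell. At 40 °C 10 rose and 2 fell, where 41.0% rose and 46.3% fell. Of the 9 PDIL genes 4 rose and 3 fell at 25 °C, and 2 rose and 6 fell at 40 °C.

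At 0H the ER list had 1 gene higher and 2 lower at 40 °C, with a median of −0.03. CRO1 fell by 0.54 (change −0.54, SE 0.08, adjusted p = 0.000771), OsbZIP50 rose by 0.45 (SE 0.10, adjusted p = 0.00875), and DER1, a gene named for the Derlin proteins of ER-associated degradation, changed by −0.39 (SE 0.13, adjusted p = 0.0455). The call of DER1 ended on leaving out any 1 of 9 of the 12 arrays, in a range of 0.0214 to 0.179 over all alternatives. Without replicates 1 and 2 of the 40 °C 0H group OsbZIP50 differed by 0.48 and was not called (adjusted p = 0.119, the highest over its alternatives).

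The seed storage proteins are the main cargo of the isomerases in the rice endosperm. Of 13 listed genes 11 had a probe set and 9 passed the filter. At 4H 6 of the 9 fell at 40 °C and 0 rose (43.5% and 30.5% of the probe sets tested), with a median change of −0.83. The glutelin genes GLUA1 (−1.25, SE 0.34), GLUA2 (−0.83, SE 0.27) and GluB5 (−0.82, SE 0.26) and the globulin gene GLB1 (from 3.94, below log2 4, to 2.94) were among them. The SEs of these genes were larger than those of the PDIL genes, and without replicate 3 of the 25 °C 4H group 2 of the 9 were called lower. At 0H 2 of the 9, RA14 and PROLM25, were higher at 40 °C, where 5.99% of the probe sets tested were. With the replicate block GLUD1 was called as well (0.79, adjusted p = 0.0146, against 0.0511 without the block and 0.00230 to 0.213 over all alternatives). Without replicates 1 and 2 of the 40 °C 0H group together 0 were called. Over all 11 storage genes with a probe set the summed log2 signal was 58.6 to 70.8 in the 25 °C 4H arrays and 57.0 to 59.5 in the 40 °C 4H arrays.

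Other proteins of the thioredoxin fold, the thioredoxins, glutaredoxins, peroxiredoxins and a sulfhydryl oxidase, numbered 49 listed genes, of which 33 passed the filter. At 4H 18 of these fell at 40 °C and 10 rose, where 43.5% of the probe sets tested fell and 30.5% rose, with a median of −0.35. The largest fall and rise of this list were −2.16 (GRXC3) and 1.86 (GRXS3). GRXC3 had a group mean above log2 4 in the 25 °C 4H group alone (5.49, against 3.33 at 40 °C 4H). GRXS3 had 0H means of 1.84 at 25 °C and 2.08 at 40 °C. As this list also holds more genes than the PDIL list, the ranges of the lists are not compared. At 0H 3 rose, 3 fell and 27 did not pass the test.

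**Figure D4:**
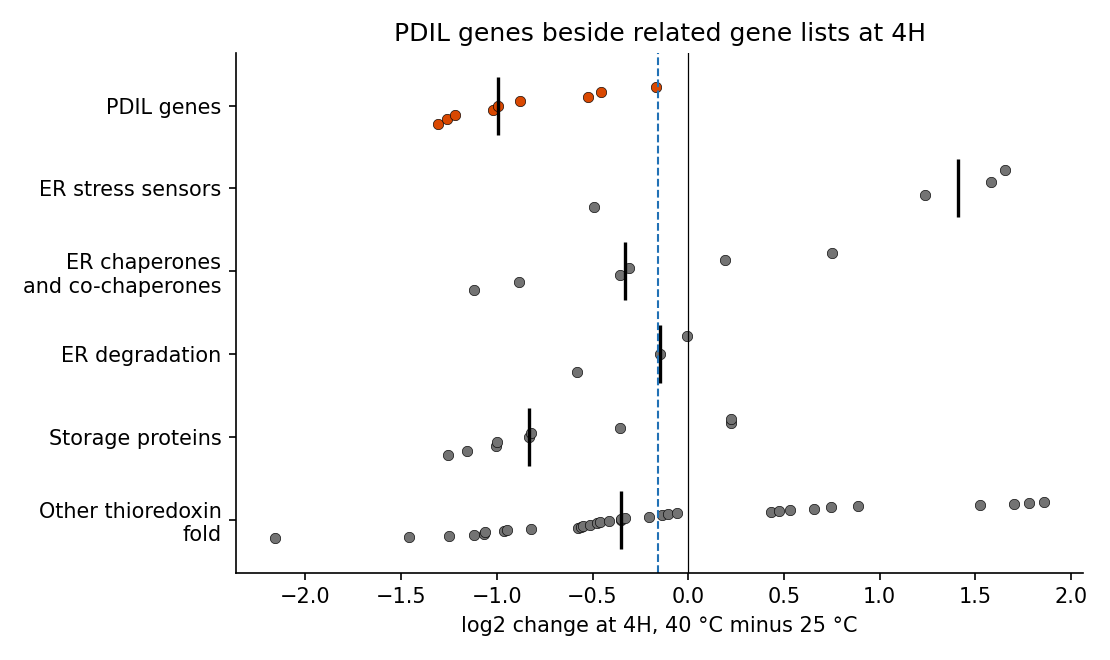
Each point is 1 gene that passed the filter, placed on the horizontal axis by its log2 change at 40 °C relative to 25 °C in the 4H arrays. Rows are gene lists, black bars are list medians, and the dashed line is the median of all probe sets tested (−0.16). The PDIL genes lie between −1.31 and −0.17. The row labelled ER stress sensors holds OsIRE1 and the transcription factors OsbZIP39, OsbZIP50 and OsbZIP60. Of these 4 genes 3 lie above 1.

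OsPDIL1-2 and OsPDIL1-3, which carry the class name of OsPDIL1-1, stayed below the filter in every array. OsPDIL1-2 ranged from 1.22 to 2.23 with a median of 1.81. OsPDIL1-3 ranged from 0.85 to 2.79 with a median of 1.14, and its 3 values in the 40 °C 4H group were 2.51, 1.21 and 2.79. As the filter sets no measured background, these values say only that both signals were low.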

How the data were processed

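RNA of 12 samples was measured on 1 array each. Per the submitters' processing notes the authors used GCRMA, for which no version is given. The deposited values are log2 signals per probe set, the log base being read from the values; genome build is not given in the sources used here. Of 57381 probe sets 123 controls were left out, and 17650 of 57258 lay above log2 4 in at least 3 arrays. limma 3.58.1 in R 4.3.3 was fitted on all 12 arrays (group means, contrasts, eBayes with trend, two-sided, 8 residual degrees of freedom before moderation), with Benjamini-Hochberg adjustment over the 17650 probe sets of each comparison and a threshold of 0.05. Intervals are not adjusted. Python 3.11.15, numpy 2.4.6, pandas 2.3.3 and matplotlib 3.10.9 made tables and plots.

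Each gene was read by its probe set with the highest mean over 12 arrays; 22436 probe sets had exactly 1 gene. Names came from a RefSeq table of the assembly ASM3414082v1, used for names only. The members and gene lists were chosen with earlier results of these data known. All members were named, with the 3 nearest other named genes of each, and up to 4 genes of lowest p per list and comparison. CRO1, OsbZIP39, BIP1, OsERdj3A, OsERdj3B, OsERdj2, GRXC3 and GRXS3 in the 4H comparison fall outside that rule and were chosen after their values were seen. No sequence is printed.

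The labels do not say that the replicates came from separate seed lots, so p-values cover only the variation among these arrays, possibly technical, and precision is limited by how many arrays there were. Same-numbered arrays were checked for pairing by the correlation of their deviations from the group means. For 4H with 0H at 25 °C it was 0.23, 0.13 and 0.42, all above 0.1, and not all above it in the other comparisons. Differently numbered arrays 1 and 2 of that comparison correlated at 0.20 and 0.19, above the 0.13 of the same-numbered replicates 2. These values thus do not single out pairing by number, and the labels state none. A fit with the replicate block was an alternative. Data were simulated with independent noise for the 4H comparison (17650 probe sets), where 100 probe sets were changed by 1 and another 100 by 2. The fit recovered 93 of the changes of 1 and 99 of those of 2, and 6 of its 198 calls were false. In the simulated interaction it recovered 71 and 97 of 100, and 10 of 178 calls were false. In the measured data 74.0% and 65.0% of the probe sets tested were called, so these shares do not carry over to them. Alternatives changed the filter, scaling, variance trend, array weights, groups fitted, arrays left out and, for OsPDIL2-1, the probe set.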

Additional observations from a re-analysis of the deposited data

Results flagged for a closer look

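In 7 genes the effect of storage temperature differed between the 4H and the 0H arrays by the interaction term of the limma fit, which was called in 65.0% of the probe sets tested and negative in 36.9%. The 4H effect minus the 0H effect, in log2 units, was −1.28 for OsPDIL5-1, −1.21 for OsPDIL2-1, −1.20 for OsPDIL1-1, −0.98 for OsPDIL2-2, −0.85 for OsPDIL5-4, −0.77 for OsPDIL2-3 and −0.37 for OsPDIL5-2. In the 4H arrays all 3 replicates at 40 °C lay below all 3 at 25 °C for each of the 7, where the groups of 76.3% of the probe sets did not overlap. The 3′ minus 5′ log2 signal of Gapdh had group means of 2.24 at 25 °C and 3.66 at 40 °C in the 0H arrays. In the 4H arrays they were 2.34 and 2.77. For Actin the means were 2.44 and 3.33 at 0H and 2.97 and 2.95 at 4H. The part of these measures in the differences between the effects was not tested. Groups of 3 arrays were too small for a check of single outlying arrays.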

How the results depend on the processing

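The counts of PDIL genes called were recomputed under each alternative. The 8 falls at 40 °C in the 4H arrays and the 6 falls from 0H to 4H at 40 °C stayed at 8 and 6 without any 1 array. Leaving out 1 array gave 0 to 1 genes lower at 40 °C at 0H (0 with all arrays), 2 to 4 lower from 0H to 4H at 25 °C (3 with all), 1 to 2 higher from 0H to 4H at 40 °C (2 with all) and 6 to 7 with a negative interaction (7 with all, and 6 with no filter or median centring). At 0H array weights called 3 genes lower at 40 °C, and a fit of only the 2 groups called 1. For 4H against 0H at 40 °C, 1 gene was called higher with no filter, with quantile normalization, with median centring and, an alternative added after seeing the data, without replicates 1 and 2 of the 40 °C 0H group together. For 4H against 0H at 25 °C median centring called 5 genes lower. The causes were not tested. With the replicate block no PDIL call changed: 8 genes were lower at 40 °C at 4H, and the interaction was called negative in 7. Among the storage genes the block called 5 higher and not 0 from 0H to 4H at 25 °C, 8 lower and not 5 at 40 °C, and 3 higher and not 2 at 40 °C at 0H. Of the values of single PDIL genes under the alternatives other than the added one, 950 stayed on their side of the threshold, 14 lost a call and 12 gained one, and no called value changed sign. The alternative that took another probe set applied to OsPDIL2-1 only. Its values for every other gene repeat the main fit, could not change, and are counted among the 950. OsPDIL1-5 could not be tested with the stricter filter at log2 6, and arrays without a background measure in the deposited values set no limit of detection here.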
